A study of Rattus norvegicus with 16 samples.

Results

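The 10 genes described here are markers of astrocytes and of the reactive state that astrocytes take on after injury, and they were measured in the right hippocampus of rats given an iron salt into the amygdala. They are Gfap, Vim and Nes, which encode intermediate filament proteins, S100b, Aqp4 and Gja1, which mark astrocytes at rest as well, and Serpina3n, Timp1, Cd44 and Osmr, which encode a secreted inhibitor, a second secreted inhibitor and a pair of surface receptors. The genes were chosen as a list of names, and each was read from the array probe whose RefSeq accession belongs to it, taking the probe with the highest mean signal where there were several. All 10 were found on the array. Of these, 8 passed the filter on dim probes and entered a fit of 27889 genes and unnamed probes, 9588 of them with a gene symbol, while S100b and Osmr did not pass and are given as values.

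RNA was taken from 16 male Wistar rats, 1 array for each. Every rat had a guide cannula fixed at the right amygdala at 5 weeks of age and was infused through it later. In the 3 iron groups 1 µl of 100 mM FeCl3 in saline at pH 2.2 was infused, and the tissue was collected 5, 15 or 30 days afterwards (Fe day 5, Fe day 15 and Fe day 30). The control rats received 1 µl of saline at the same pH, and their tissue was collected at day 15 alone. Each group held 4 arrays. At Fe day 5 and Fe day 30 the rats were also of another age than the controls and at another interval from the infusion, so that for these groups the effects of iron, age and interval cannot be told apart. The cannula and the acid saline were common to all 4 groups, and rats without surgery were not among the groups. Amygdalar iron is followed by recurrent limbic seizures and is studied as a stand-in for posttraumatic epilepsy.

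Astrocytes fill the space around neurons, take up potassium and glutamate, and cover blood vessels with end feet that carry the water channel encoded by Aqp4. After seizures or injury they can become reactive: they enlarge, build more intermediate filament from the products of Gfap, Vim and Nes, and express genes that respond to cytokines of the interleukin 6 family through the receptor subunit encoded by Osmr and the transcription factor STAT3. Several of these genes are not confined to astrocytes, since Vim, Timp1 and Cd44 are also expressed by fibroblasts of the meninges, by vessel walls and by immune cells. The RNA came from whole tissue, so fewer cells of a type and less RNA per cell cannot be told apart.

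The promoters of 4 members are shown. Vim and Timp1 were high on the same few arrays, and Gfap varied as much among the controls as among iron-treated rats. The window of Serpina3n held a match to TTCNNNGAA, a form of the sequence that STAT proteins can bind. RefSeq promoter windows on the build GRCr8 were available for all 10 members, with 11 windows in all because Aqp4 has more than one start. Each sequence below is the 250 bases before the annotated start, read along the gene's own strand in lower case, with a motif match in capitals. The windows lie at chr17:81577011-81577260 on the plus strand for Vim, chrX:3771123-3771372 on the minus strand for Timp1, chr10:88361662-88361911 on the minus strand for Gfap and chr6:129088142-129088391 on the plus strand for Serpina3n.
Vim: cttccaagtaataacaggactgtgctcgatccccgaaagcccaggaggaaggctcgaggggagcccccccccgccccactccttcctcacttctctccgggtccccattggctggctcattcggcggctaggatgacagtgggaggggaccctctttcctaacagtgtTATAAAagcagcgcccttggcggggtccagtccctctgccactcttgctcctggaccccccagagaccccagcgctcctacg
Timp1: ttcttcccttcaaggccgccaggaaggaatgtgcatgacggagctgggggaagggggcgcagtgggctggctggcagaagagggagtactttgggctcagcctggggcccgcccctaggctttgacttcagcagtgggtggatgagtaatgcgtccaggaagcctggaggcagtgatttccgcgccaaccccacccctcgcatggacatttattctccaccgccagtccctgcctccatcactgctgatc
Gfap: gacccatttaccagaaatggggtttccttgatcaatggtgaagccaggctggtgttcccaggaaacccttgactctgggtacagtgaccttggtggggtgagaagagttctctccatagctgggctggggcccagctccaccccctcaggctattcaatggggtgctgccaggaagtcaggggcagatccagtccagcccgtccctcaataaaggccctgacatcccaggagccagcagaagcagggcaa
Serpina3n: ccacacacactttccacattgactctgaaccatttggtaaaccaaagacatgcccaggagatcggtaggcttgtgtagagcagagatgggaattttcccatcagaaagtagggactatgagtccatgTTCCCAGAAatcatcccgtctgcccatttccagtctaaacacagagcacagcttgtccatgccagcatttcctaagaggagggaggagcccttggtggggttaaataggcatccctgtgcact
The motif TTCNNNGAA, searched on both strands, was present in 7.67% of 33469 windows of that length and in the window of 1 member, Serpina3n, where it begins 123 bases before the start. TGANTCA, the core bound by AP-1 factors, was searched on both strands and was present in 6.34% of windows and in those of Gja1 and Osmr, beginning 58 and 33 bases before the start. TATAAA, searched on the gene's strand only, was present in 8.06% of windows and in that of Vim, beginning 82 bases before the start. None of the windows shown held more than 1 of these motifs. A match to TTCNNNGAA in 1 of 11 member windows is close to its share of all windows. Only 250 bases and 1 spacing of each motif were searched, so sites farther off or spaced otherwise were not counted. These matches are descriptions of the letters in a short window.

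Levels are given on a log2 scale relative to the 75th percentile of the same array, so that 0 is the level of that percentile and a difference of 1 is a doubling. They are compared between arrays for a gene and not between genes, because probes differ in brightness. The 75th percentile of the processed signal lay between 553 and 924 over the 16 arrays, and 74.2% to 81.6% of the spots for transcripts were well above background. Transcripts of resting astrocyte genes were detected in every sample. All 27 listed resting astrocyte genes found on the array were above background on all 16 arrays, as were the probes of Gfap, Aqp4 and Gja1. The probe of S100b was well above background on 11 of the 16. The score of a gene list on an array, used below, is the median over its members of the log2 level minus the mean level of the controls.

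No member passed the threshold of an adjusted p of 0.05 on any day. In limma's fit of all 16 arrays with Benjamini-Hochberg adjustment, 0 of 8 members were called at Fe day 5, beside 0% of all genes, 0 of 8 at Fe day 15, beside 0% of all genes, and 0 of 8 at Fe day 30, beside 0.00717% of all genes, which is 2 of 27889. The lowest adjusted p among the members was 0.587 at Fe day 5, 0.337 at Fe day 15 and 0.705 at Fe day 30. At an unadjusted p under 0.05 the counts were 0, 1 and 0 members, where 10.3%, 11.6% and 7.83% of all genes had such a p. The 1 member was Cd44. In no comparison with control did the 4 iron values of a member all lie above, or all lie below, the 4 control values, and 7.78%, 9.83% and 6.24% of all genes had such separate groups at days 5, 15 and 30. The median difference of the members was 0.0048 at day 5, 0.09 at day 15 and 0.12 at day 30, against medians over all genes of -0.02, -0.00023 and -0.01. Without 4 iron arrays that stood apart, described below, the median of the members was -0.07, -0.05 and -0.05. Those arrays were picked for high values of the members Vim and Timp1, so these medians are not independent of the choice.

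The threshold was not passed between the iron groups either. Fe day 15 against Fe day 5, Fe day 30 against Fe day 5 and Fe day 30 against Fe day 15 gave 0 of 8 members and 0% of all genes, with lowest adjusted p-values among the members of 0.794, 1.00 and 0.775 in the same limma fit. At an unadjusted p under 0.05 the count was 0 members in each, where 7.19%, 3.0% and 6.46% of all genes had such a p. limma's F-test across the 4 groups gave 0 members and 0% of all genes, and its lowest unadjusted p among the members was 0.0739 for Cd44 (adjusted p 0.615).

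**Figure D1:**
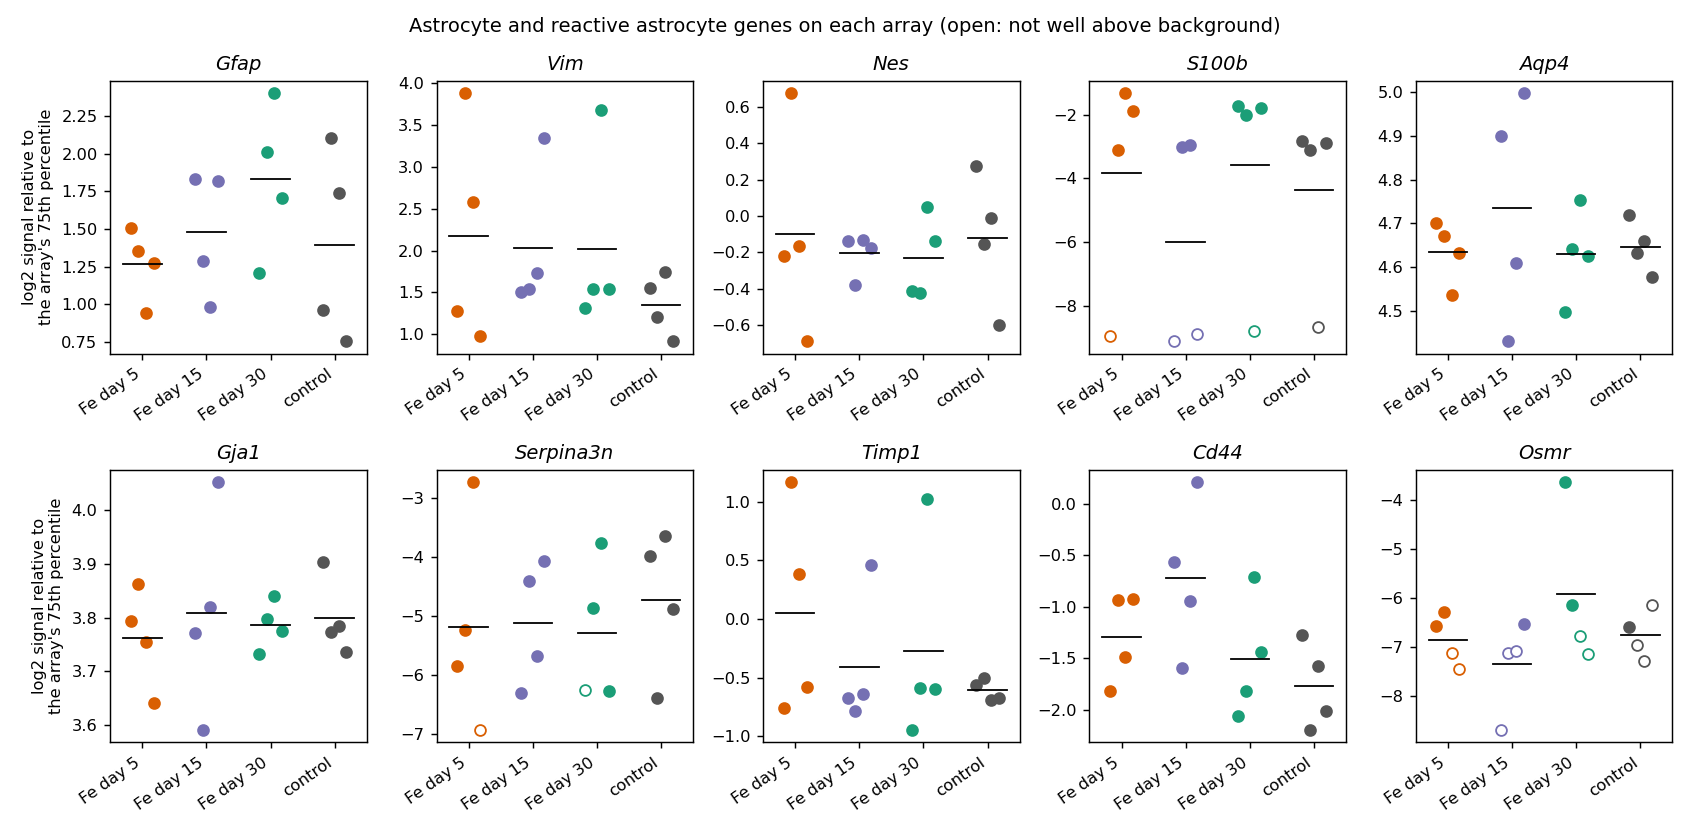
Level of each of the 10 genes on each of 16 arrays, as log2 signal relative to the array's 75th percentile (vertical axis, its own scale in each panel), for Fe day 5, Fe day 15, Fe day 30 and control (horizontal axis); points are arrays in replicate order, lines are group means, and open points were not well above background. Vim and Timp1 have 1 or 2 high arrays in each iron group and none in the controls, and S100b lies at separate steps.

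Gfap encodes the filament protein by which reactive astrocytes are usually recognised. Its levels were 1.51, 1.35, 0.94 and 1.27 at Fe day 5, 1.83, 1.29, 0.98 and 1.82 at Fe day 15 and 1.20, 2.01, 2.40 and 1.70 at Fe day 30, against 0.96, 2.11, 1.74 and 0.75 in controls. The controls spanned a wider range than any iron group, and all 3 iron groups overlapped them. At Fe day 30 only replicate 3, at 2.40, lay above the highest control. The differences from control were -0.12 ± 0.31, 0.09 ± 0.31 and 0.44 ± 0.31 (SE, n = 4 each) at days 5, 15 and 30, with adjusted p-values of 0.905, 0.935 and 0.705 from limma. At day 30 the 95% interval ran from -0.23 to 1.11, that is from 0.854-fold to 2.15-fold, so a doubling lay within it, and without replicate 3 the difference was 0.25. The probe of Gfap was printed in 10 spots, and the SD between the spots of an array was at most 0.13, against an SD of 0.64 between the 4 controls. That SD between controls stood at the 97.9th percentile of all genes. No other probe of Gfap was found under its accession, so no second reading of it was to be had.

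Vim encodes vimentin, the filament protein that joins GFAP in reactive astrocytes and is also abundant in fibroblasts and endothelium. Its levels were 1.28, 3.88, 2.58 and 0.98 at Fe day 5, 1.50, 1.54, 1.73 and 3.34 at Fe day 15 and 1.31, 1.55, 3.68 and 1.54 at Fe day 30, against 1.55, 1.20, 1.74 and 0.92 in controls. A total of 4 arrays stood apart, Fe day 5 replicates 2 and 3, Fe day 15 replicate 4 and Fe day 30 replicate 3, and the other 8 iron arrays lay within the range of the controls. The differences from control were 0.83 ± 0.65, 0.68 ± 0.65 and 0.67 ± 0.65 (SE, n = 4 each) at days 5, 15 and 30, with adjusted p-values of 0.636, 0.710 and 0.781 from limma. Without those 4 arrays, an alternative chosen after the values were seen, the differences were -0.22, 0.24 and 0.11. The 4 were the highest in Vim itself, so lower differences followed from the choice. The pooled SD of Vim within groups, 0.99, stood at the 98.6th percentile of all genes, and the SD within the iron groups was 3.07 times that within the controls, where the median gene had a ratio of 1.60.

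Nes encodes nestin, a filament protein of neural precursors and of some reactive astrocytes. Its levels ran from -0.69 to 0.67 at Fe day 5, from -0.38 to -0.13 at Fe day 15 and from -0.43 to 0.05 at Fe day 30, against -0.60 to 0.28 in controls. The highest of the 16 arrays was Fe day 5 replicate 2, which was also the highest for Vim. Nes differed from control by 0.02, -0.08 and -0.11 (SE 0.24 each), with a lowest adjusted p of 0.907 from limma. Without the 4 arrays that stood apart in Vim they were -0.33, -0.10 and -0.21. The arrays left out held the highest Nes values of Fe day 5 and Fe day 30, so lower differences there followed from the choice. A second probe of Nes, dimmer by its own scale, placed the same array highest, at -1.51, and the same array lowest, Fe day 5 replicate 4 at -2.99.

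Aqp4, the water channel of astrocyte end feet, varied little beside most genes by its brightest probe. Its levels were 4.70, 4.67, 4.54 and 4.63 at Fe day 5, 4.90, 4.43, 4.61 and 5.00 at Fe day 15 and 4.50, 4.64, 4.75 and 4.63 at Fe day 30, against 4.72, 4.63, 4.66 and 4.58 in controls. Fe day 15 held both the highest and the lowest arrays. Its pooled SD of 0.15 stood at the 33.8th percentile of all genes. The SD of Aqp4 within the iron groups was 2.88 times that within the controls, where the median gene had a ratio of 1.60. Aqp4 differed from control by -0.01, 0.09 and -0.02 (SE 0.11 each), and at day 30 the 95% interval ran from -0.25 to 0.21, so that neither a doubling nor a halving lay within it. The direction of these small values differed between the 4 probes of Aqp4, and at day 15 they ran from -0.13 to 0.10. The spread differed too. In a fit of all probes the SE was 0.11 for the brightest probe and 0.12, 0.15 and 0.15 for the others. The median SE of a gene in the main fit was 0.13.

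Gja1 encodes connexin 43, the main gap junction protein of astrocytes. Its levels ran from 3.64 to 3.86 at Fe day 5, from 3.59 to 4.05 at Fe day 15 and from 3.73 to 3.84 at Fe day 30, against 3.74 to 3.90 in controls. Gja1 differed from control by -0.04, 0.01 and -0.01 (SE 0.09 each), with a lowest adjusted p of 0.898 from limma. The 95% intervals at the 3 days together lay between -0.22 and 0.19, or 0.857-fold and 1.14-fold. Its pooled SD of 0.11 stood at the 18.7th percentile of all genes, so this marker of resting astrocytes varied less within groups than most genes.

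S100b encodes a calcium-binding protein made by mature astrocytes. Its levels were -8.96, -3.10, -1.33 and -1.89 at Fe day 5, -9.10, -3.00, -2.95 and -8.87 at Fe day 15 and -1.73, -2.01, -8.80 and -1.79 at Fe day 30, against -2.84, -3.10, -8.65 and -2.90 in controls. The 16 values fell at 3 separate steps. The lowest held 5 arrays between -9.10 and -8.65 that were not well above background, namely 1 of Fe day 5, 2 of Fe day 15, 1 of Fe day 30 and 1 control. A gap of 5.55 separated these from 6 arrays between -3.10 and -2.84, and a gap of 0.83 separated those from 5 arrays between -2.01 and -1.33. The middle step held 1 array of Fe day 5, 2 of Fe day 15 and 3 controls, and the highest held 2 of Fe day 5 and 3 of Fe day 30. The probe was printed in 10 spots, and the SD between the spots of an array lay between 0.11 and 0.26, far less than the gap to the lowest step. Among 40889 other probes on the array, none had a Pearson correlation of 0.9 or more with it over the 16 arrays, and the highest was 0.828. Each group held at least 1 array at the lowest step, so S100b did not meet the filter in any group and is given no test.

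Serpina3n encodes a serine protease inhibitor that is widely used as a marker of reactive astrocytes in mice. Its levels were -5.85, -5.24, -2.72 and -6.93 at Fe day 5, -6.30, -4.41, -5.68 and -4.06 at Fe day 15 and -6.26, -4.86, -3.76 and -6.27 at Fe day 30, against -3.98, -6.39, -3.63 and -4.89 in controls. The groups overlapped across most of their ranges. It was dim, being well above background on 3, 4 and 3 arrays of the iron groups in order of day and on 4 controls. Serpina3n differed from control by -0.46, -0.39 and -0.57 (SE 0.88 each), with a lowest adjusted p of 0.866 from limma. Without the 4 arrays high in Vim and Timp1, described below, the differences were -1.67, -0.74 and -1.08, farther from 0 at each day, with a lowest adjusted p of 0.423 from limma. The arrays left out held the highest Serpina3n value of each iron group, and no control was left out. Lower differences thus followed from the choice, and no conclusion is drawn from them. The 95% interval at day 30 with all arrays ran from 0.183-fold to 2.50-fold, so that both a halving and a doubling lay within it. The pooled SD of Serpina3n, 1.35, stood at the 99.5th percentile of all genes.

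Timp1 encodes the inhibitor of matrix metalloproteinases that astrocytes, fibroblasts and immune cells release after injury. Its levels were -0.76, 1.17, 0.38 and -0.58 at Fe day 5, -0.67, -0.79, -0.64 and 0.46 at Fe day 15 and -0.94, -0.59, 1.03 and -0.60 at Fe day 30, against -0.56, -0.50, -0.69 and -0.68 in controls. The same 4 arrays as for Vim were the highest, in the same order, and every other iron array lay at -0.58 or below. The controls were tight, with an SD of 0.09, and the SD within the iron groups was 8.84 times as large. The differences from control were 0.66 ± 0.45, 0.20 ± 0.45 and 0.33 ± 0.45 (SE, n = 4 each) at days 5, 15 and 30, with adjusted p-values of 0.587, 0.897 and 0.846 from limma. Without those 4 arrays the differences were -0.06, -0.09 and -0.10, with an SE of 0.11, 0.10 and 0.10. The 4 are iron arrays picked after the values were seen, for high Vim and Timp1. Lower differences and a smaller SE thus followed from the choice, and no conclusion is drawn from them.

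Cd44 encodes the surface receptor for hyaluronan that is present on some reactive astrocytes and on many immune cells. Its levels were -1.82, -0.94, -1.49 and -0.93 at Fe day 5, -0.57, -1.59, -0.94 and 0.21 at Fe day 15 and -2.06, -1.82, -0.71 and -1.44 at Fe day 30, against -1.27, -2.20, -1.58 and -2.01 in controls. At Fe day 15, the day on which the controls were collected, 3 of 4 arrays lay above the highest control and replicate 2 lay beside control replicate 3. The difference at day 15 was 1.04 ± 0.37 (SE, n = 4 each), which is 2.06-fold with a 95% interval from 1.19-fold to 3.58-fold, and its unadjusted p was 0.0138. Its adjusted p from limma was 0.337, so the difference did not pass the threshold. Over the alternatives the adjusted p was 0.231 at the lowest, and without Fe day 15 replicate 4 it was 0.612, where the difference was 0.73. With the slide as a block the difference was 1.11. On the 3 slides that held both groups, the Fe day 15 array exceeded its control by 1.63 and 1.07 on 2 slides and differed from it by -0.02 on the third. The differences at days 5 and 30 were 0.48 and 0.26, with adjusted p-values of 0.636 and 0.856. Without the 4 arrays high in Vim and Timp1 the differences were 0.40, 0.73 and -0.0099 at days 5, 15 and 30. The arrays left out held the highest Cd44 values of Fe day 15 and Fe day 30, so lower differences there followed from the choice. A second probe of Cd44 was not well above background on any array and is given no difference.

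Osmr encodes the receptor subunit for oncostatin M, a cytokine of the interleukin 6 family. It was well above background on 2, 1 and 2 arrays at Fe days 5, 15 and 30 and on 1 control array, and did not meet the filter. Its levels ran from -7.45 to -6.28 at Fe day 5, from -8.69 to -6.53 at Fe day 15 and from -7.14 to -3.63 at Fe day 30, against -7.29 to -6.14 in controls. One array, Fe day 30 replicate 1 at -3.63, stood above all others.

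**Figure D2:**
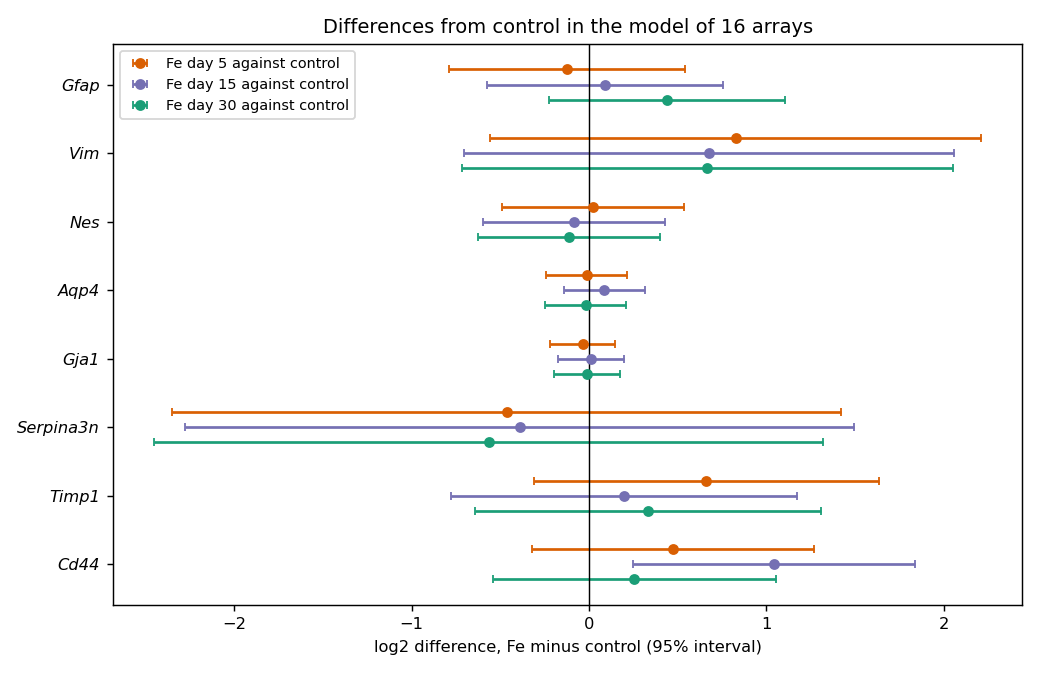
Differences from control for the 8 genes in the fit, as log2 of Fe minus control (horizontal axis), with 95% intervals from the model of 16 arrays, for Fe day 5, Fe day 15 and Fe day 30. The intervals of Aqp4 and Gja1 are narrow around 0, those of Serpina3n and Vim are wide, and that of Cd44 at day 15 alone lies off 0 before adjustment.

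The 4 arrays on which Vim and Timp1 were high also differed in markers of other cell types. In a list of meningeal and fibroblast markers, such as Lum and Slc22a6, 17 genes were on the array and 16 in the fit, and 15 of 17 were above background on all 4 controls. Aldh1a2 was above background on no control. The summed level of the 16, in multiples of the array's 75th percentile, lay between 29.4 and 318 at Fe day 5, between 31.2 and 53.7 at Fe day 15 and between 32.1 and 270 at Fe day 30, against 29.0 to 33.8 in controls. The score was 3.73 and 2.05 on Fe day 5 replicates 2 and 3, 0.79 on Fe day 15 replicate 4 and 3.15 on Fe day 30 replicate 3, the 4 highest scores of the 16 arrays, and on no other array did it exceed 0.38. The 4 arrays highest in Vim were thus the 4 highest in meningeal markers. The part that such tissue had in the levels of Vim and Timp1 was not tested.

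**Figure D3:**
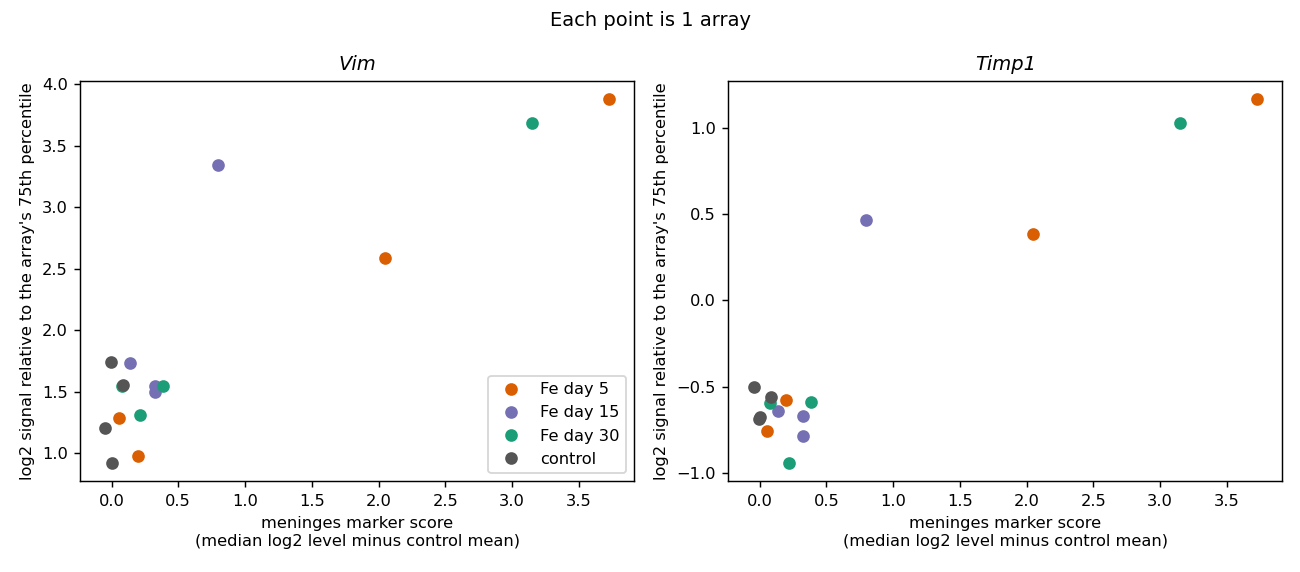
Level of Vim (left) and Timp1 (right), as log2 signal relative to the array's 75th percentile (vertical axis), against the meningeal marker score (horizontal axis, median log2 level minus control mean), where each point is 1 array coloured by group. The 4 arrays with the highest Vim and Timp1 have scores of 0.79 to 3.73, and the other 12 have scores of at most 0.38.

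Choroid plexus markers were highest on the same arrays by score. Of 12 such genes on the array 9 were in the fit, 6 were above background on all controls, and Kl, Slc4a5 and Prlr were above background on none. Their score was 1.76 and 1.97 on Fe day 5 replicates 2 and 3, 0.92 on Fe day 15 replicate 4 and 5.56 on Fe day 30 replicate 3, and at most 0.59 on the other arrays. Their summed level lay between 1.00 and 26.9 at Fe day 5, between 0.741 and 2.73 at Fe day 15 and between 0.743 and 248 at Fe day 30, against 0.615 to 1.61 in controls. Other arrays were raised too: the sum was 2.89 on Fe day 5 replicate 1 and 4.24 on Fe day 30 replicate 4, with 6 of 9 genes above the highest control on each, while Fe day 15 replicate 4 had 2.73 and 5 of 9. Microglia and macrophage markers, all 17 of them above background on all 16 arrays, followed another pattern. Their score was 1.07 on Fe day 15 replicate 4 and 0.95 on Fe day 30 replicate 3, where 17 of 17 lay above the highest control, and at most 0.22 on the other arrays. Their summed level lay between 57.9 and 73.0 at Fe day 5, between 52.4 and 122 at Fe day 15 and between 45.0 and 121 at Fe day 30, against 57.0 to 62.4 in controls. Those 2 arrays were the highest and the third highest for Cd44. The second highest for Cd44, Fe day 15 replicate 1 at -0.57, had a microglia score of -0.24, among the lowest of the 16, with 0 of 17 genes above the highest control. The part of microglia in the level of Cd44 was not tested.

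Markers of blood and vessel walls were also higher on several of these arrays, and on some other iron arrays. Blood markers, all 7 in the fit, scored 2.03 and 0.60 on Fe day 5 replicates 2 and 3, 1.48 on Fe day 15 replicate 4 and 1.75 on Fe day 30 replicate 3, but also 1.30 on Fe day 5 replicate 4 and 1.01 and 1.16 on Fe day 15 replicates 2 and 3. All 7 were higher than in controls on each day, with median differences of 1.13, 0.88 and 0.44, and 0 were called. Their summed level lay between 27.7 and 56.9 at Fe day 5, between 27.5 and 64.9 at Fe day 15 and between 23.5 and 73.1 at Fe day 30, against 24.6 to 32.4 in controls. Pericyte and smooth muscle markers were higher in 10 of 10 genes at Fe day 5, 8 at Fe day 15 and 10 at Fe day 30, again with 0 called, and their score was highest on Fe day 5 replicate 2 at 1.38 and Fe day 30 replicate 3 at 0.86. Their summed level lay between 11.7 and 18.4 on the 12 iron arrays, against 10.8 to 12.3 in controls. At Fe day 30 their score lay between 0.20 and 0.86, against at most 0.15 in controls. Their median differences were 0.48, 0.19 and 0.47 at days 5, 15 and 30. Without the 4 arrays high in Vim and Timp1 they were 0.09, 0.19 and 0.41. Of 12 endothelial markers, 11, 7 and 12 were higher than in controls at days 5, 15 and 30, with 0 called. Their median differences were 0.17, 0.0011 and 0.29, or -0.05, 0.03 and 0.22 without the 4 arrays. Endothelial markers scored at most 0.53, on Fe day 30 replicate 3, and ependymal markers scored 1.60 on that array and at most 0.60 on the others. The part of blood and vessel walls in the levels of Vim, Timp1 and Cd44 was not tested.

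The resting astrocyte genes had a score of -0.12 and -0.10 on Fe day 5 replicates 2 and 3, 0.07 on Fe day 15 replicate 4 and -0.11 on Fe day 30 replicate 3. Of these 4 arrays, 3 thus had the lowest resting astrocyte scores of all 16, by small amounts, and Fe day 15 replicate 4 did not. The summed level of the 27 genes lay between 745 and 849 at Fe day 5, between 813 and 935 at Fe day 15 and between 778 and 836 at Fe day 30, against 796 to 881 in controls. The lowest sums, 745 and 763, were those of Fe day 5 replicates 2 and 3.

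**Figure D4:**
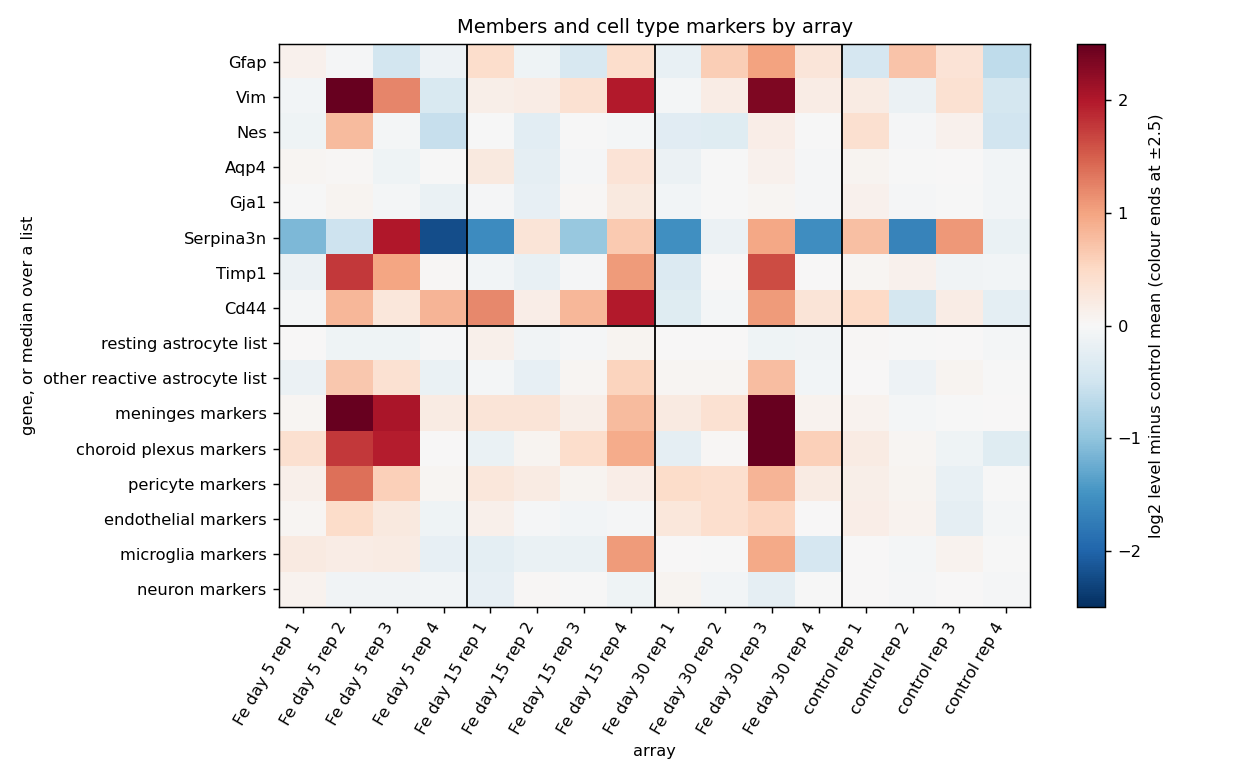
Log2 level minus the control mean (colour, ending at 2.5 either way) for the 8 genes in the fit (upper rows) and, as medians, for gene lists (lower rows), on each of 16 arrays (columns, by group and replicate). Vim, Timp1 and the meningeal markers are high on the same 4 arrays, the meningeal markers least so on Fe day 15 replicate 4. Aqp4, Gja1 and the resting astrocyte list are pale throughout.

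The wider lists to which the members belong gave no called gene against control on any day, so 0 genes passed in each direction in every list below. Of 27 measured resting astrocyte genes, 10 were higher and 17 lower at Fe day 5, 14 higher and 13 lower at Fe day 15, and 9 higher and 18 lower at Fe day 30, with median differences of -0.02, 0.01 and -0.06. The 3 of lowest F-test p were Atp1b2, a subunit of the sodium pump, Gpc5, a glypican, and F3, tissue factor. The level of Gpc5 averaged 0.82 ± 0.17, 0.83 ± 0.10 and 0.83 ± 0.15 at Fe days 5, 15 and 30, against 1.07 ± 0.07 in controls (SD, n = 4 each), and its adjusted p from limma was 0.373 at the lowest.

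Of 25 measured reactive astrocyte genes outside the 10 members, 17 were higher at Fe day 5, 16 at Fe day 15 and 18 at Fe day 30, where 45.5%, 49.9% and 46.3% of all genes were higher. Their median differences were 0.08, 0.10 and 0.20 with all arrays, and -0.20, -0.11 and -0.05 without the 4 arrays high in Vim and Timp1. The sign of the median thus changed with those arrays on all 3 days. The 4 are iron arrays chosen after the values were seen, and this list scored highest on them. A lower median without them thus followed from the choice. Their score on those 4 arrays was 0.68, 0.38, 0.57 and 0.78, in the order Fe day 5 replicates 2 and 3, Fe day 15 replicate 4 and Fe day 30 replicate 3, and was at most 0.06 on the other 12. The 3 of lowest F-test p were Tm4sf1, Cd109 and Fbln5, the last an extracellular matrix gene. At days 5, 15 and 30 Tm4sf1 differed from control by 0.56, -0.14 and 0.39, and Cd109 by -0.38, -0.09 and 0.14. Fbln5 differed by 1.41, 0.65 and 0.90. Its difference at Fe day 5 had an SE of 0.46 and an adjusted p of 0.469 from limma.

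Among 13 measured genes of interleukin 6 and STAT3 signalling, 5 were higher at Fe day 5, 7 at Fe day 15 and 6 at Fe day 30, and the medians were -0.06, 0.0024 and -0.02, or -0.07, -0.01 and -0.06 without those 4 arrays. Il6, Osm and Il11 did not meet the filter, and Il6 and Il11 were above background on no control. In the iron groups, 2, 3 and 2 of the 16 listed genes on the array were above background on no array of days 5, 15 and 30. Socs1, a feedback inhibitor of cytokine receptors, had levels of -4.46, -4.28, -4.22 and -4.31 at Fe day 30, against -4.76, -4.67, -4.50 and -4.95 in controls, and the groups did not overlap. Its difference was 0.40 ± 0.13 (SE) with an adjusted p of 0.533 from limma. Junb, an AP-1 subunit, had levels of 0.09, 0.05, -0.10 and 0.68 at Fe day 30, against 1.06, 0.88, 0.73 and 0.95 in controls, a difference of -0.73 ± 0.20 (SE) with an adjusted p of 0.469 from limma, and these groups did not overlap either. Both genes were picked for a low F-test p, and 6.24% of all genes had separate groups at that day. At Fe days 5 and 15 Socs1 differed from control by 0.11 and -0.22 and Junb by -0.39 and -0.54, none of them called.

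The partners of the members gave the following medians at days 5, 15 and 30. The 8 other intermediate filament genes had 0.13, 0.18 and 0.08, and their gene of lowest F-test p was Nefm, a neurofilament subunit, at 0.36 ± 0.12 (SE) at day 5. The 6 other connexin and gap junction genes had 0.31, 0.03 and 0.25. Among them Gjb2, a connexin also made by the meninges, had levels of 4.18 and 2.40 on Fe day 5 replicates 2 and 3 and 2.97 on Fe day 30 replicate 3. No control exceeded 0.91, and no array of Fe day 15, replicate 4 among them, exceeded 1.12. The 7 genes that anchor aquaporin had 0.08, -0.01 and -0.01. The 8 genes of hyaluronan and CD44 had 0.14, 0.13 and 0.17, the 7 metalloproteinases and inhibitors 0.49, 0.15 and 0.44, and the 6 other S100 genes -0.03, 0.10 and 0.04. Mmp16, of lowest F-test p among the metalloproteinases and inhibitors, went the other way, at -0.17, -0.32 and -0.20, none of them called. Without the 4 arrays high in Vim and Timp1 the metalloproteinases and inhibitors had 0.16, 0.13 and 0.06, the connexins 0.13, 0.11 and 0.13, and the genes of hyaluronan and CD44 -0.05, 0.05 and 0.08. The S100 genes then had -0.14, -0.08 and -0.10, the intermediate filament genes 0.16, 0.20 and 0.08, and the aquaporin anchors 0.05, -0.02 and 0.03. Has1 and Has3, which make hyaluronan, and Mmp3 and Mmp12 did not meet the filter.

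The genes whose levels were most like a member's over the 16 arrays were found by Pearson's r among genes with a symbol. The arrays share groups and the 4 high arrays, so these values describe the data and carry no test. Vim was most like Anxa1 (r = 0.98, Spearman's rho 0.86, and r = 0.95 without the 2 arrays farthest from the median), Anxa2 and Emp3. Timp1 was most like Emp3, Ifitm1 and Igsf6, with r from 0.97 to 0.98, but the rho of Ifitm1 was 0.59. Cd44 was most like Cdk1, N4bp3 and Pdlim4, with r from 0.86 to 0.90. Aqp4 was most like Fxyd3 at r = 0.91, and Gja1 was most like Plec at 0.77. Gfap had no close likeness, its highest r being 0.73 with Dnase1l1. Nes was most like Prss23 at 0.83, Serpina3n Slc2a10 at 0.88, S100b Orc1 at 0.82, and Osmr Or8u3 at 0.86, the last falling to 0.25 without 2 arrays. Among the members themselves the closest pair was Vim and Timp1 at r = 0.95 (rho 0.58, and r = 0.86 without 2 arrays). Aqp4 and Gja1 had r = 0.75 (rho 0.71, and 0.75 without 2 arrays), and Aqp4 and Cd44 also had r = 0.75, which fell to 0.41 without 2 arrays.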

How the data were processed

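Single-colour Agilent arrays were used. The deposited intensity of a spot is its processed signal, which per the file headers is background-subtracted and linear, and which came from Agilent Feature Extraction 9.5 per the submitters' processing notes. A deposited table of intensity values equalled it in 100% of entries at a relative tolerance of 1e-06. Gene names came from RefSeq accessions through a table on GRCr8, used for names and promoters only.

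Signals were placed on a log2 scale and the array's 75th percentile was subtracted. Of 45018 spots 1639 were controls. Spots marked as outliers were dropped, and the spots of a probe were averaged. A probe was kept if at least 1 group had it well above background on every array, which gave 30548 probes, and the brightest probe of a symbol was used. limma 3.58.1 in R 4.3.3 fitted all 16 arrays with 12 residual degrees of freedom, two-sided, with Benjamini-Hochberg adjustment at 0.05. The fit was run on simulated data with independent noise for each probe and a shift at Fe day 5. Those data held no shifts shared by many genes of an array, so the run checks the procedure alone. The p-values reflect the spread between single rats, and 4 arrays a group limit the precision.

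The members and lists were chosen with earlier results of these data known. Named genes were the 10 members, genes of lowest F-test p in each list (up to 3, of which those the results turn on are given) and the 3 genes most like each member, or the first of them. Marker lists for oligodendrocytes and neurons were also measured: 0 of their genes were called against control, their highest scores were 0.67 and 0.10 and their lowest -0.27 and -0.23.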

Additional observations from a re-analysis of the deposited data

Results flagged for a closer look

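In 40 groups of 4 arrays, 6 values were flagged because the highest or lowest array lay far from the other 3, its gap to the nearest being more than 0.829 of the group's range. For independent values with a normal distribution, chance flags about 1 in 20 such groups. The groups here were not independent, since Vim and Timp1 were high on the same arrays. The number of flags is thus not set against that rate. Vim was 3.34 in Fe day 15 replicate 4, where the other 3 lay between 1.50 and 1.73, and 3.68 in Fe day 30 replicate 3, where the others lay between 1.31 and 1.55. Timp1 was 0.46 in Fe day 15 replicate 4, where the others lay between -0.79 and -0.64. S100b was -8.80 in Fe day 30 replicate 3, where the others lay between -2.01 and -1.73, and -8.65 in control replicate 3, where the others lay between -3.10 and -2.84. Nes was -0.38 in Fe day 15 replicate 2, where the others lay between -0.17 and -0.13.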

How the results depend on the processing

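No member was called in any of 174 counts over the 6 comparisons and the alternatives, and the lowest adjusted p of a member was 0.231. Of 681 alternative differences of members from control 64 changed sign, none of them called, and the cause was not tested. After quantile normalization the log2 difference of Aqp4 was 0.042 at day 5 and 0.024 at day 30, and that of Gja1 was 0.0096 and 0.022. With normexp background and quantile normalization Aqp4 was at 0.036 and 0.024, and Gja1 at 0.0029 and 0.014. Aqp4 at day 5 was 0.013 as the mean of its probes and 0.080 and 0.044 by 2 other probes. By other probes it was -0.13 and -0.000073 at day 15 and 0.025 at day 30, and Nes at day 15 was 0.013. With the slide as a block Nes was -0.080 at day 5, and at day 15 Gfap was -0.053 and Gja1 -0.033. With array weights Gfap was 0.020 and Nes -0.086 at day 5, Aqp4 -0.020 and Gja1 -0.073 at day 15, and Timp1 -0.0027 and Cd44 -0.060 at day 30. Leaving out the 3 arrays high in choroid plexus and meninges markers (Fe day 5 replicates 2 and 3, Fe day 30 replicate 3) gave -0.22 for Vim, -0.33 for Nes, 0.019 for Aqp4 and -0.059 for Timp1 at day 5, and -0.10 for Timp1 and -0.0099 for Cd44 at day 30. Leaving out Fe day 15 replicate 4 as well, a set of 4 chosen after the values were seen, gave the same values at days 5 and 30. At day 15 it gave -0.023 for Gfap, -0.00062 for Aqp4, -0.072 for Gja1 and -0.092 for Timp1.

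Leaving out each array in turn gave, at day 5, -0.33 to 0.12 for Gfap, -0.24 to 0.22 for Nes, -0.035 to 0.021 for Aqp4, -0.070 to 0.0041 for Gja1 and -1.28 to 0.12 for Serpina3n. At day 15 it gave -0.12 to 0.33 for Gfap, -0.24 to 0.048 for Nes, -0.00062 to 0.19 for Aqp4, -0.072 to 0.081 for Gja1, -0.95 to 0.0061 for Serpina3n and -0.092 to 0.32 for Timp1. At day 30 it gave -0.27 to 0.021 for Nes, -0.059 to 0.026 for Aqp4, -0.034 to 0.021 for Gja1, -0.10 to 0.55 for Timp1 and -0.0099 to 0.44 for Cd44.

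The count of all genes called by limma against control, 0 at day 5, 0 at day 15 and 2 at day 30, moved with the setting. At day 5 it was 1 with no filter on dim probes. At day 15 it was 1 with no filter, 183 with array weights, 2 with the 2 groups alone, 1 without the 3 arrays, 7 without the 4, and 0 to 9 with each array left out, the 9 without Fe day 15 replicate 4. At day 30 it was 8 after quantile normalization, 25 with array weights, 0 with the slide as a block, with the 2 groups alone, without the 3 arrays and without the 4, and 0 to 10 with each array left out, the 10 without Fe day 5 replicate 4. Fe day 15 against Fe day 5, at 0, had 2 with array weights, 1 without the 4 arrays and 0 to 13 with each left out, the 13 without Fe day 15 replicate 4. Fe day 30 against Fe day 5, at 0, had 1 with the 2 groups alone. The F-test, at 0, had 1 after quantile normalization, with no filter and without the 4 arrays, 18 with array weights, and 0 to 2 with each left out. Each array came from its own rat, and the replicate numbers were not used as pairs in the main fit. Same-numbered arrays of different groups correlated at -0.41 to 0.39, with a median of -0.035, against a median of 0.011 for other numbers. Of 16 arrays, 8 correlated best with their own number, and the count expected by chance was not computed. With the replicate number as a block 1 gene was called at day 15, and no member was called.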
